A study of Mus musculus with 2 samples.

Results

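The genes of the skeletal muscle sarcomere, of muscle calcium handling and of the myogenic transcription factors were followed in RNA sequencing of lymphatic endothelial cells (LECs) from mouse embryonic skin. The members are the rows whose gene symbol is on a list of 34 striated muscle genes. All 34 symbols were found among the 24319 rows of the gene tables. The 2 libraries were one labelled Dot1l knockout, described in the labels as an endothelial deletion, and one labelled wild type. Both came from the skin of C57BL/6 embryos at E15.5 (embryonic day), and each was 1 library made from RNA pooled from 2 to 3 biological replicates. Dot1l encodes a histone methyltransferase, and the driver of its deletion and the way the cells were purified were not given in the sources used here. The labels carry a culture protocol for primary dermal LECs without saying that the sequenced cells were cultured. With 1 library per genotype no difference has a replicate check, and no test or p-value can be given.

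Striated muscle contracts when myosin thick filaments pull on actin thin filaments between the Z-discs of the sarcomere. Calcium released from the sarcoplasmic reticulum binds troponin C, and the troponin complex then moves tropomyosin off the sites on actin that myosin needs. Muscle precursors that carry Pax7 or Myf5 turn on Myod1 and Myog, fuse and build sarcomeres, and the fetal fibres first use embryonic and perinatal myosins. Skin of the embryo lies over such muscle and, in the mouse, includes the thin panniculus carnosus muscle.

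Values are FPKM as the authors deposited them, that is, fragments scaled to transcript length in kilobases and to 1000000 mapped fragments. A log2 difference is log2(FPKM + 1) in the library labelled knockout minus that in the wild type library, a scale on which low values differ by less than their ratio. Genes are called at least 2-fold higher or lower by this difference. Genes at 1 FPKM or more in at least 1 library are called measured. A fold given for a single gene is the plain ratio of its FPKM. The libraries held an estimated 9100000 fragments under the knockout label and 10200000 under the wild type label, if no further scaling was applied. A value of exactly 0 may be a failed estimate, since Hmgcs1, an enzyme gene of the sterol pathway active in most cells, stands at 0 in both libraries.

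Dot1l itself was 10.4 FPKM in the library labelled knockout and 5.86 FPKM in the wild type library. This value covers the whole gene, and whether its reads come from outside the deleted part was not tested. Whether the labels themselves are right was not tested and stays in doubt. Every direction given here would turn round if the labels were exchanged. The library is therefore called by its label throughout. Endothelial markers were present in both libraries, most of them at lower levels under the knockout label: 12 pan-endothelial genes summed to 322 FPKM there and to 1326 FPKM in wild type, with a median log2 difference of -2.01, and 8 measured lymphatic genes had a median of -2.25. Lyve1, a lymphatic hyaluronan receptor that some macrophages also carry, was the exception among these 8, at 553 FPKM in the library labelled knockout and 526 FPKM in wild type. Smooth muscle and pericyte markers (median -2.38), fibroblast markers (median -1.94), adipocyte markers (median -3.04) and keratinocyte markers (median -1.07) were lower as well. Macrophage markers (median 6.48) and mast cell markers (median 6.75) were higher. The part of this shift in the values of the muscle genes was not tested. In libraries of this kind, fewer cells of a type and less RNA per cell cannot be told apart.

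Muscle transcripts were present in both libraries at low levels, and most were lower in the library labelled knockout. The median member had 0.520 FPKM in the library labelled knockout and 1.94 FPKM in the wild type library. In the library labelled knockout 31 of the 34 genes lay under 10 FPKM, and in wild type 30 did. Of the 34 genes, 26 had a lower value in the library labelled knockout, 7 had a higher one, and Myh1 was listed at 0 in both. Over all 24319 rows, many of them at 0 in both libraries, 36.07% had a lower value in the library labelled knockout and 35.45% a higher one, and over the measured genes (1 FPKM or more in at least 1 library) 49.8% had a lower one. The levels ran from the tropomyosin Tpm1, the most abundant member in both libraries, down to genes resting on a few fragments.

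Measured members numbered 23, and 11 stayed under 1 FPKM in both libraries. Past the 2-fold line were 10 lower members and 1 higher member, and 12 lay within it. Over all 13296 measured genes 15.49% lay past this line as lower and 16.78% as higher. The median log2 difference of the 23 members was -0.87, beside 0.00 for all measured genes. On the ratio of the deposited FPKM, 16 of the 23 were at 0.5 of the wild type value or less, beside 20.62% of all genes. By the same ratio 1 member was at 2 times the wild type value or more, beside 19.74% of all genes. Of the 23 genes, 8 were measured only through the wild type library and none only through the library labelled knockout, so these counts are in part set by the minimum. The 8 genes are Neb, Tnni1, Tnnt2, Myh8, Ttn, Casq2, Ckm and Myog, whose direction the minimum fixes. The 15 genes at 1 FPKM or more in both libraries held 7 lower and 1 higher past 2-fold, with a median of -0.87. No share of all genes was computed under this stricter minimum, so these 15 have no such comparison. Among 18 measured members under 10 FPKM in both libraries 7 were lower and 1 higher past 2-fold, while 17.29% of the 5656 measured genes in this range were lower and 14.43% higher.

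**Figure D1:**
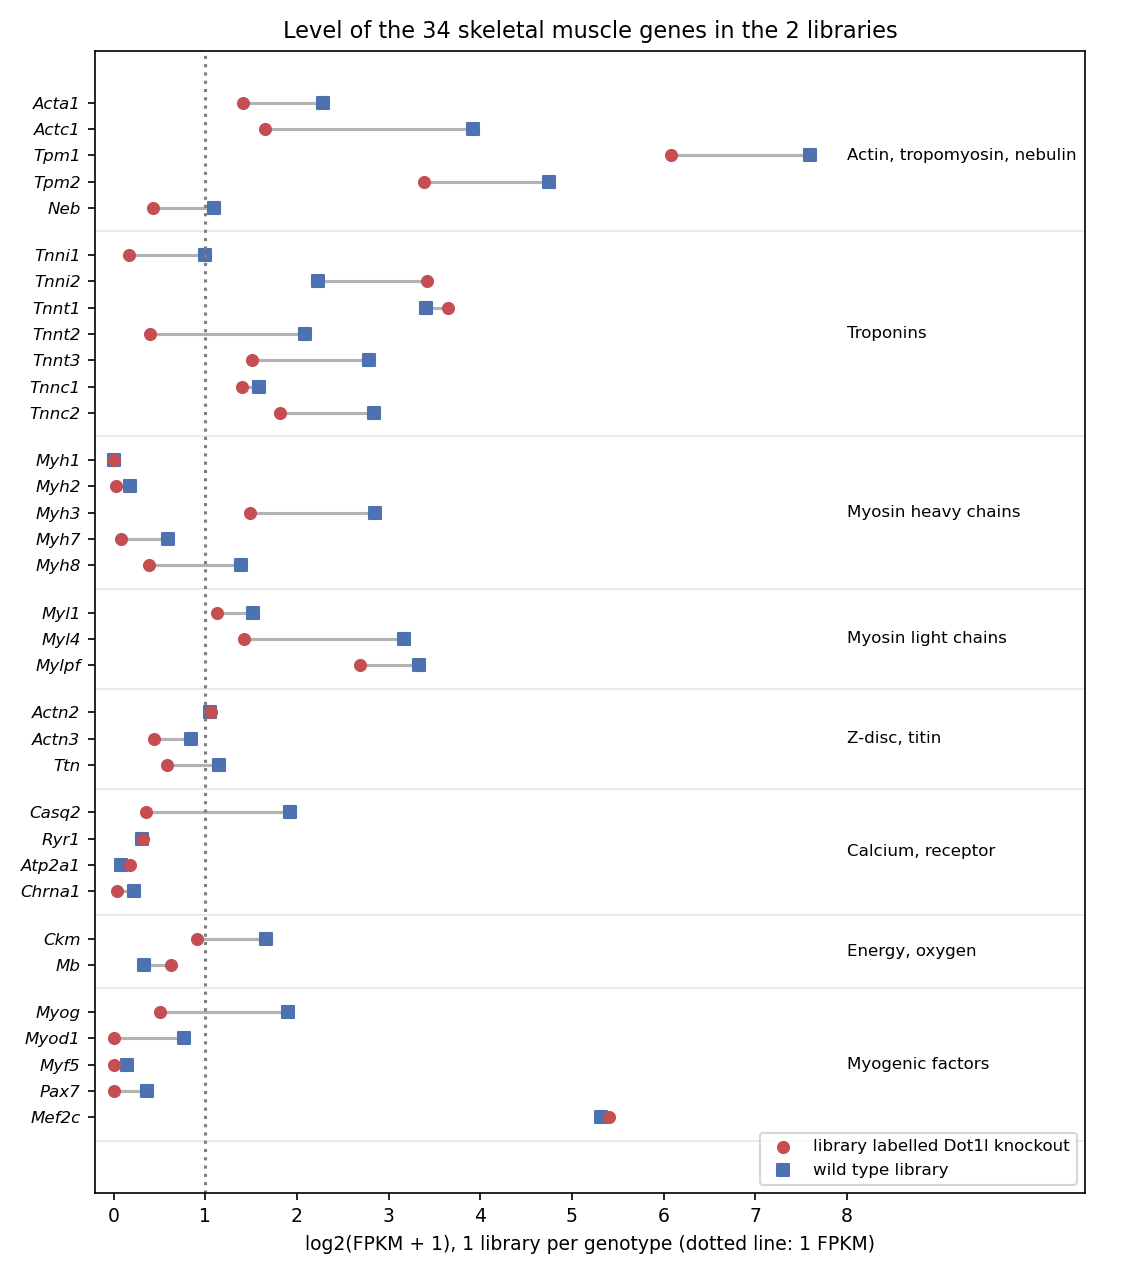
Level of each of the 34 genes as log2(FPKM + 1) in the library labelled Dot1l knockout (red circles) and in the wild type library (blue squares), grouped by role, 1 library per genotype with no error bars. The red circle lies left of the blue square for 26 genes, and the widest gap is that of Actc1, at 2.15 FPKM under the knockout label and 14.1 FPKM in wild type.

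**Figure D2:**
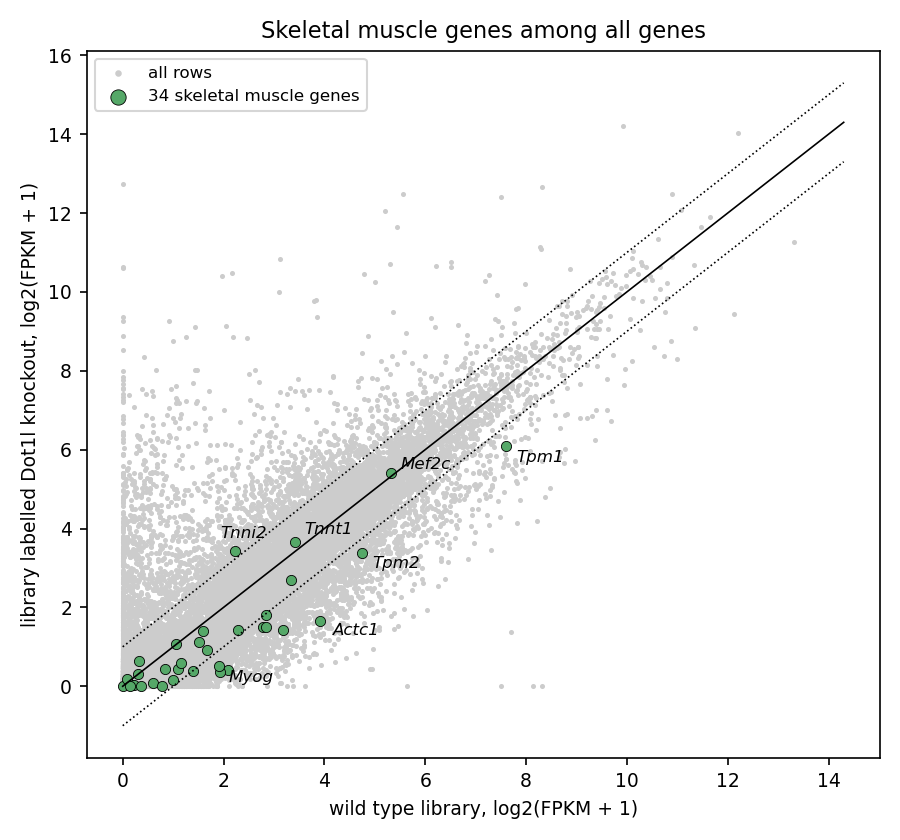
Every row of the tables (grey) and the 34 muscle genes (green), with log2(FPKM + 1) in the library labelled Dot1l knockout on the vertical axis and in the wild type library on the horizontal axis; the solid line marks equal values and the dotted lines 2-fold differences. Of the measured muscle genes 10 lie below the lower dotted line and Tnni2 alone lies above the upper one.

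Of the 5 genes of actin, tropomyosin and nebulin, 3 were lower past the 2-fold line (Actc1, Tpm1 and Tpm2) and 2 lay within it (Acta1 and Neb). Actc1, which encodes cardiac alpha-actin, also the main sarcomeric actin of embryonic skeletal muscle, had 2.15 FPKM in the library labelled knockout and 14.1 FPKM in the wild type library. That 6.58-fold lower value gave the most negative log2 difference among the members, -2.27. Acta1, the skeletal alpha-actin of mature muscle, was 1.67 FPKM in the library labelled knockout and 3.89 FPKM in wild type, 2.33-fold lower. Within the pair, Actc1 made up 56.3% of the summed sarcomeric actin FPKM in the library labelled knockout and 78.4% in wild type. Actins are near-identical in sequence, so the division of reads between these genes and other actins is uncertain.

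Both tropomyosin genes are used outside striated muscle as well, in smooth muscle and in the stress fibres of many cells. Tpm1 had 66.9 FPKM in the library labelled knockout and 193 FPKM in wild type, 2.88-fold lower. Tpm2 had 9.48 FPKM in the library labelled knockout and 25.9 FPKM in wild type, 2.73-fold lower. Smooth muscle markers were lower in the same library: Acta2 was 6.27 FPKM in the library labelled knockout and 56.0 FPKM in wild type, and Myl9 was 9.70 FPKM in the library labelled knockout and 49.3 FPKM in wild type. Their part in the tropomyosin values was not tested. Neb encodes nebulin, the giant protein that runs along the thin filament. It was 0.351 FPKM in the library labelled knockout and 1.13 FPKM in wild type, which in so long a transcript rests on an estimated 71.3 fragments under the knockout label and 259 in wild type.

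The 7 troponin genes did not all differ in one direction. Tnnt2, the cardiac and embryonic skeletal troponin T, had 0.321 FPKM in the library labelled knockout and 3.24 FPKM in wild type, a 10.1-fold lower value. Tnnt3, the fast skeletal troponin T, was 1.86 FPKM in the library labelled knockout and 5.88 FPKM in wild type, 3.16-fold lower. Tnnc2, the fast troponin C, was 2.52 FPKM in the library labelled knockout and 6.17 FPKM in wild type. Each of these 3 genes was at least 2-fold lower on the log2 scale.

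Tnni1, the slow troponin I, was 0.126 FPKM in the library labelled knockout and 1.002 FPKM in wild type, an estimated 2.24 fragments under the knockout label and 20.1 in wild type. Tnnc1, the troponin C of slow and cardiac muscle, was 1.64 FPKM in the library labelled knockout and 2.01 FPKM in wild type, with a log2 difference of -0.19. At an estimated 7.81 fragments under the knockout label and 10.7 in wild type, a difference of that size was not detectable at this depth.

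Tnni2 and Tnnt1 had higher values in the library labelled knockout. Tnni2, the fast troponin I, had 9.70 FPKM in the library labelled knockout and 3.70 FPKM in the wild type library, a log2 difference of 1.19, and it was the single member counted as higher. These values rest on an estimated 61.5 fragments under the knockout label and 26.4 in wild type. Tnnt1, the slow troponin T, had 11.6 FPKM in the library labelled knockout and 9.62 FPKM in wild type, a log2 difference of 0.24. Rescaling both libraries to a sum of 1000000 shifts the median of all genes to -0.33, and on that scale the difference of Tnni2 was 0.96 and that of Tnnt1 was -0.08. Tnni2 lies beside Lsp1 on chromosome 7, a leukocyte gene with 25.2 FPKM in the library labelled knockout and 6.61 FPKM in wild type. Tnnt3, on the other side of Lsp1, was lower. The part of macrophage and mast cell transcripts in the Tnni2 value was not tested.

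The make-up of the troponin families by FPKM therefore differed between the libraries, and such a share within a library does not depend on the scaling between them. Some shares rest on few fragments, such as the estimated 2.24 of Tnni1 under the knockout label. Tnni2 made up 98.7% of the summed Tnni1 and Tnni2 FPKM in the library labelled knockout and 78.7% in wild type. Among the 3 troponin T genes Tnnt1 made up 84.2% in the library labelled knockout and 51.3% in wild type. Tnnt2 made up 2.34% in the library labelled knockout and 17.3% in wild type. Tnnc2 made up 60.5% of troponin C FPKM in the library labelled knockout and 75.4% in wild type. With an estimated 11.5 fragments of Tnnc2 and 7.81 of Tnnc1 under the knockout label, the troponin C shares are imprecise. When the cardiac troponin I gene Tnni3 was counted with its paralogs, Tnni2 made up 32.4% in the library labelled knockout and 69.2% in wild type. Tnni3 then made up 67.1% in the library labelled knockout and 12.0% in wild type.

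**Figure D3:**
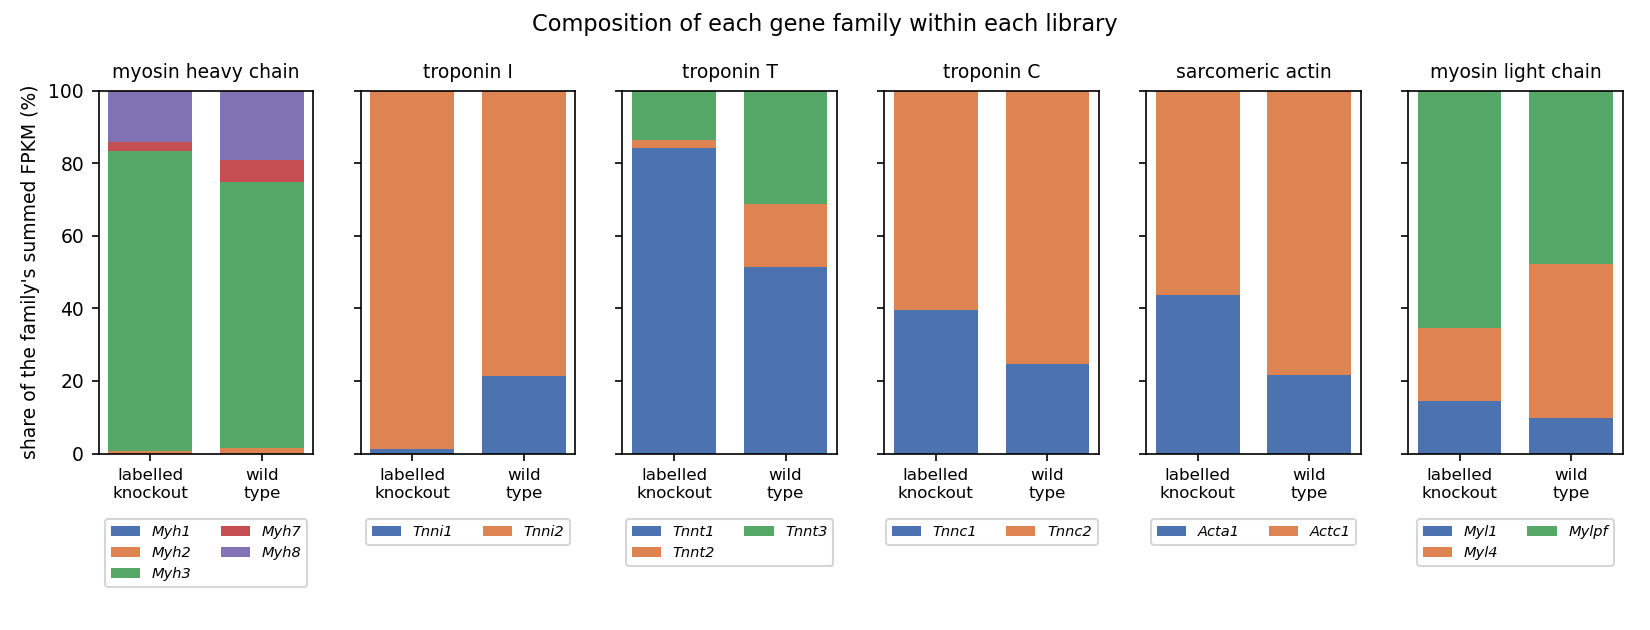
Share of each gene in the summed FPKM of its family (vertical axis, percent), with the library labelled Dot1l knockout left of the wild type library in each panel and 1 library per bar. Only listed genes are counted. In the troponin T panel Tnnt1 takes 84.2% of the bar under the knockout label and 51.3% of the wild type bar.

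Of the 5 striated muscle myosin heavy chains on the list, those of developing muscle were the most abundant. The smooth muscle heavy chain Myh11 was higher than any of them, at 2.53 FPKM in the library labelled knockout and 20.3 FPKM in wild type. Myh3, the embryonic heavy chain, had 1.82 FPKM in the library labelled knockout and 6.20 FPKM in the wild type library, 3.41-fold lower with an estimated 96.4 fragments under the knockout label and 370 in wild type. Myh8, the perinatal heavy chain, had 0.310 FPKM in the library labelled knockout and 1.61 FPKM in wild type, 5.21-fold lower, and its log2 difference of -0.997 lay just inside the 2-fold line. Myh7, the slow heavy chain, was 0.0556 FPKM in the library labelled knockout and 0.508 FPKM in wild type. The adult fast chains were near the limit of detection. Myh2 was 0.0184 FPKM in the library labelled knockout and 0.131 FPKM in wild type, and Myh1 was listed at 0 in both libraries. Myh3 made up 82.5% of the summed heavy chain FPKM in the library labelled knockout and 73.3% in wild type, and Myh8 made up 14.1% in the library labelled knockout and 19.1% in wild type. These genes form a cluster of similar sequences on chromosome 11 (Myh7 lies elsewhere), and reads shared between them are not securely assigned.

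The 3 light chains all had lower values under the knockout label. Myl4, the embryonic and atrial essential light chain, had 1.69 FPKM in the library labelled knockout and 8.02 FPKM in wild type, 4.75-fold lower. Mylpf, the fast regulatory light chain, was 5.43 FPKM in the library labelled knockout and 9.06 FPKM in wild type, a log2 difference of -0.65. Myl1, the fast essential light chain, was 1.19 FPKM in the library labelled knockout and 1.87 FPKM in wild type. Myl4 made up 20.3% of the summed light chain FPKM in the library labelled knockout and 42.3% in wild type, while Mylpf made up 65.3% in the library labelled knockout and 47.8% in wild type.

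None of the 3 genes of the Z-disc and of titin was past the 2-fold line on the log2 scale. Ttn, the giant spring that spans the sarcomere from Z-disc to M-line, had 0.493 FPKM in the library labelled knockout and 1.22 FPKM in wild type, 2.47-fold lower, on an estimated 478 fragments under the knockout label and 1329 in wild type because the transcript is so long. Actn2, the alpha-actinin that crosslinks thin filaments at the Z-disc, was 1.08 FPKM in the library labelled knockout and 1.07 FPKM in wild type. Its small difference changes sign when the libraries are rescaled to the same sum or the same upper quartile. Actn3, the alpha-actinin of fast fibres, stayed under 1 FPKM, at 0.361 FPKM in the library labelled knockout and 0.790 FPKM in wild type.

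Of the 4 genes of calcium handling and of the motor endplate, Casq2 alone was measured, and only through the wild type library. Casq2 encodes the calcium-binding calsequestrin of cardiac and slow or fetal skeletal muscle. It had 0.279 FPKM in the library labelled knockout and 2.80 FPKM in wild type, 10.03-fold lower, an estimated 5.99 fragments under the knockout label and 67.6 in wild type. Ryr1, the calcium release channel, was 0.251 FPKM in the library labelled knockout and 0.240 FPKM in wild type, and its sign also depends on the scaling. Atp2a1, the calcium pump of fast muscle, was 0.133 FPKM in the library labelled knockout and 0.0595 FPKM in wild type, an estimated 3.98 fragments under the knockout label and 2.00 in wild type. Chrna1, the alpha subunit of the muscle acetylcholine receptor, was 0.0263 FPKM in the library labelled knockout and 0.163 FPKM in wild type, an estimated 1.001 fragments under the knockout label and 7.01 in wild type. At such counts the last pair of genes supports no direction.

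Ckm, the muscle creatine kinase that regenerates ATP, had 0.877 FPKM in the library labelled knockout and 2.17 FPKM in wild type, 2.48-fold lower. Mb, the oxygen carrier myoglobin, was 0.548 FPKM in the library labelled knockout and 0.258 FPKM in wild type, an estimated 4.52 fragments under the knockout label and 2.39 in wild type.

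Of the 5 myogenic factors 2 were measured, Mef2c in both libraries and Myog only through the wild type library. Of these Myog was past the 2-fold line as lower while Mef2c was not. Myog, the factor that drives terminal differentiation, had 0.417 FPKM in the library labelled knockout and 2.75 FPKM in the wild type library, 6.59-fold lower on an estimated 4.92 fragments under the knockout label and 36.5 in wild type. Myod1, the determination factor, stood at 0 in the library labelled knockout and at 0.705 FPKM in wild type, where this value rests on an estimated 12.0 fragments. Pax7, the factor of muscle progenitors and satellite cells, likewise stood at 0 in the library labelled knockout, against 0.283 FPKM and an estimated 16.4 fragments in wild type. Myf5, an early determination factor, stood at 0 in the library labelled knockout and at 0.103 FPKM in wild type, an estimated 1.99 fragments. A single fragment would have given 0.0661 FPKM for Myod1, 0.0194 FPKM for Pax7 and 0.0583 FPKM for Myf5 in the library labelled knockout.

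Mef2c, a partner of the myogenic factors that endothelial cells and macrophages also use, was of another order of magnitude, at 41.3 FPKM in the library labelled knockout and 38.9 FPKM in wild type. The log2 difference of 0.09 became -0.26 after rescaling to the same sum and -0.07 at the same upper quartile. Leaving out Tpm1, Tpm2 and Mef2c, the members most used by other cells, the remaining 20 measured genes had a median of -0.85.

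The letters at the start sites of the members, lower or not, were read for motifs of muscle factors. RefSeq windows (GRCm38.p6) from 250 bases before to 50 bases after a start were at hand for 29 of the 34 genes. An E-box, CANNTG, which myogenic factors of the MyoD family bind in one of its forms, read on both strands, was in the windows of 23 of the 29 genes, or 79.3%, and of 74.99% of all genes. The form CAGCTG, which is contained in the first, was in those of 10 of the 29 genes, or 34.5%, and of 18.3% of all genes. The MEF2 motif was in 4 of the 29 member genes, or 13.8%, and in 3.70% of all genes. The CArG motif of serum response factor was in 2 of the 29, or 6.90%, and in 1.81% of all genes. These shares are over all members with a window and do not describe the lower members alone. Of the genes with CAGCTG only Tpm2 and Tnnt2 were past the 2-fold line as lower. Among those with a MEF2 match only Casq2 was, and among those with a CArG match only Actc1. A match is only a description of these letters.

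The windows of 5 members are shown to set genes with large differences beside one with a small difference of the opposite sign. Capitals mark E-box, MEF2 and CArG matches. They are Actc1 at chr2:114052826-114053125 on the minus strand, Casq2 at chr3:102086165-102086464 on the plus strand, Myh3 at chr11:67078050-67078349 on the plus strand, Myog at chr1:134289754-134290053 on the plus strand and Tnnt1 at chr7:4515926-4516225 on the minus strand.
Actc1: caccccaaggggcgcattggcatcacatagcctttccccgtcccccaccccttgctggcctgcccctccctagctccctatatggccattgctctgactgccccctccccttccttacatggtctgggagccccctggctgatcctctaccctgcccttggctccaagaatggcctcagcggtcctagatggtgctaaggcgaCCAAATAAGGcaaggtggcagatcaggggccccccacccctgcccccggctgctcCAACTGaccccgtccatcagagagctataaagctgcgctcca
Casq2: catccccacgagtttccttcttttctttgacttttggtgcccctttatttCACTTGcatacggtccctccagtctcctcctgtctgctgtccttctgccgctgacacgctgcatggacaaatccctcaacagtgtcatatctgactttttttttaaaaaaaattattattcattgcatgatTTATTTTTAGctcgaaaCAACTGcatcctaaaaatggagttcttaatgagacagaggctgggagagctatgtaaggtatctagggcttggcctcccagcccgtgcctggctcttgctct
Myh3: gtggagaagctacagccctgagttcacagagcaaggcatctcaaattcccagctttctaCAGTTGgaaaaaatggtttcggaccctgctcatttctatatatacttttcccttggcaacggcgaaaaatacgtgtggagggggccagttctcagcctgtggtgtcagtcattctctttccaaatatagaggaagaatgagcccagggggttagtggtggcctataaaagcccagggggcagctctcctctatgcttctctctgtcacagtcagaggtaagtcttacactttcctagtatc
Myog: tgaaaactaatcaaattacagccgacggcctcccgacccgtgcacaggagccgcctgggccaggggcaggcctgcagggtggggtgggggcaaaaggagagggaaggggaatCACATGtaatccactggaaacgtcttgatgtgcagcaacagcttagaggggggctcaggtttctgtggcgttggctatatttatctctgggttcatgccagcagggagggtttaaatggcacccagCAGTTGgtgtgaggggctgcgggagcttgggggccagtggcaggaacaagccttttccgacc
Tnnt1: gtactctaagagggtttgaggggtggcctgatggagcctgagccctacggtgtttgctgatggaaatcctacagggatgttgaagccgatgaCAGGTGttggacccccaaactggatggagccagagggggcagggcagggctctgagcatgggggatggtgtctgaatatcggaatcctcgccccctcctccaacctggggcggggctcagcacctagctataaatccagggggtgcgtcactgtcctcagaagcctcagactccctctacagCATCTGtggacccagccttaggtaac
Actc1 holds a CArG match that ends 37 bases before the start, and Casq2 holds a MEF2 match that ends 59 bases before it. Each of the 5 windows holds at least 1 E-box, that of Tnnt1 included.

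The other genes of striated muscle, 86 that are not on the list of 34, were divided. Of these, 36 were measured, of which 9 were lower and 8 higher past the 2-fold line and 19 lay within it, with a median of -0.29. These are shares of 25% lower and 22.2% higher, beside 15.49% and 16.78% for all measured genes. Of the 36, 10 were measured only through the wild type library and 11 only through the library labelled knockout. Among the sarcomere genes 7 were higher and 4 lower of 16 measured, 8 of which were measured only through the library labelled knockout and 3 only through wild type. Over all 37 sarcomere genes found, 17 had a lower value in the library labelled knockout and 17 a higher one, with a median difference of 0. For the 8 excitation-contraction genes the median was -0.71 with 1 higher and 2 lower. The 8 myogenic genes had a median of -0.69 with 3 lower, and the 4 energy genes a median of 0.34 with none past 2-fold. Of the 8 myogenic genes 4 were measured only through wild type, the 3 lower ones among them.

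Among the lower ones was Des, the intermediate filament desmin that pericytes and smooth muscle also express, at 0.414 FPKM in the library labelled knockout and 7.95 FPKM in wild type. Pdlim3, a Z-disc protein, was 1.47 FPKM in the library labelled knockout and 12.7 FPKM in wild type. Tmod4, a cap of the thin filament in skeletal muscle, was 0.714 FPKM in the library labelled knockout and 4.90 FPKM in wild type. Mybpc1, the slow myosin-binding protein C, was 0.843 FPKM in the library labelled knockout and 3.14 FPKM in wild type. Dysf, a protein of membrane repair, was 5.11 FPKM in the library labelled knockout and 15.54 FPKM in wild type. The acetylcholine receptor subunit Chrnb1 was 3.36 FPKM in the library labelled knockout and 8.16 FPKM in wild type. The progenitor factors Eya1 and Six4 were 0.647 and 0.323 FPKM in the library labelled knockout, and 3.16 and 1.72 FPKM in wild type. Heyl, a Notch target also found in pericytes, was 0.225 FPKM in the library labelled knockout and 1.998 FPKM in wild type. Of these lower genes, Pdlim3, Dysf and Chrnb1 reached 1 FPKM in both libraries. The others did so only in wild type, so the minimum fixes their direction.

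Of the 8 higher ones, Smpx, Nrap, Tnni3 and Tmod1 differed by more on the log2 scale than any of the 34 members. All of the 8 but Smpx reached 1 FPKM only in the library labelled knockout, so the minimum fixes their direction. Smpx, a small protein of striated muscle, had 92.8 FPKM in the library labelled knockout and 1.16 FPKM in wild type, 80.3 times as much. Nrap, which binds actin at the myotendinous junction, had 12.2 FPKM in the library labelled knockout and 0.0941 FPKM in wild type. Tnni3 had 20.1 FPKM in the library labelled knockout and 0.641 FPKM in wild type, and Tmod1, a thin filament cap that red cells also use, had 9.41 FPKM in the library labelled knockout and 0.651 FPKM in wild type. Myoz1 (2.92 FPKM) and Mybpc3 (1.31 FPKM) were found in the library labelled knockout and were listed at 0 in wild type. Rapsn, which clusters acetylcholine receptors, was 1.73 FPKM in the library labelled knockout and 0.0686 FPKM in wild type, and Klhl40, which stabilises thin filament proteins, was 1.43 FPKM in the library labelled knockout and 0.172 FPKM in wild type.

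Other muscle-associated genes, several of which many cells use, lay within 2-fold. Tpm3, a tropomyosin of slow muscle and of the cytoskeleton, had 357 FPKM in the library labelled knockout and 271 FPKM in wild type. Mef2a had 42.6 FPKM in the library labelled knockout and 42.0 FPKM in wild type, and Mef2d had 10.1 FPKM in the library labelled knockout and 6.89 FPKM in wild type. Dmd, which encodes dystrophin, was 2.24 FPKM in the library labelled knockout and 5.44 FPKM in wild type, just inside the 2-fold line at -0.99. The glycogen phosphorylase of muscle, Pygm, was 4.61 FPKM in the library labelled knockout and 3.76 FPKM in wild type. Of 8 genes chosen to mark heart muscle, Tnni3 and Mybpc3 were measured. Both reached 1 FPKM only in the library labelled knockout, so their higher value there is fixed by the minimum. Nppa, Myl7 and Nkx2-5 were listed at 0 in both libraries, and Nppb, Myh6 and Myl2 were listed at 0 in the library labelled knockout, against 0.694, 0.116 and 0.236 FPKM in wild type.

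**Figure D4:**
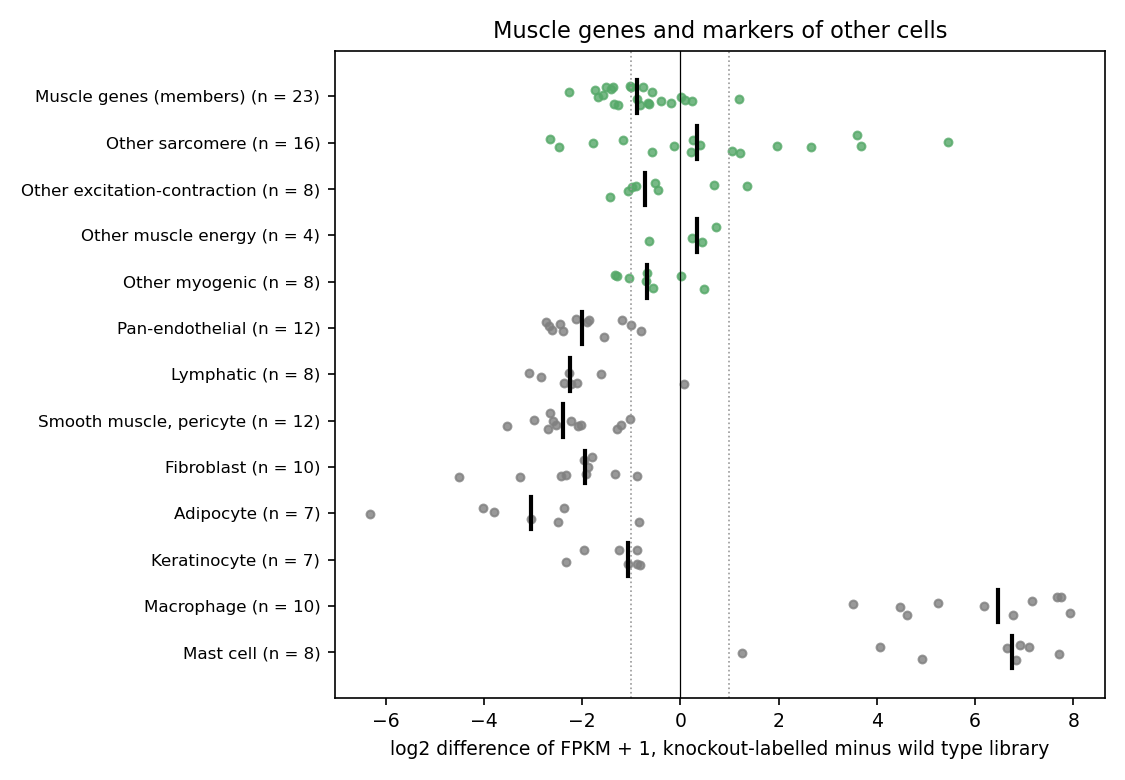
Log2 difference of FPKM + 1, library labelled Dot1l knockout minus wild type library (horizontal axis), for each measured gene of the muscle lists (green) and of the marker lists of other cells (grey), with black bars at the medians and dotted lines at 2-fold. The 23 measured members have a median of -0.87, between the pan-endothelial median of -2.01 and 0, while macrophage and mast cell markers lie at 6.48 and 6.75.

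The summed FPKM of the 34 members was 165 in the library labelled knockout and 348 in the wild type library. Divided by the summed lymphatic endothelial markers, of which Lyve1 is the largest term in the library labelled knockout, this gave 0.222 in the library labelled knockout and 0.230 in wild type. Divided by the summed pan-endothelial markers it gave 0.511 in the library labelled knockout and 0.263 in wild type. The ratio to the smooth muscle and pericyte markers was 3.19 in the library labelled knockout and 1.22 in wild type, and that to the fibroblast markers was 0.179 in the library labelled knockout and 0.0969 in wild type. Without Tpm1, Tpm2 and Mef2c, which other cells also use, the members summed to 46.9 FPKM in the library labelled knockout and 90.8 FPKM in wild type. The ratio to the lymphatic markers was then 0.0632 in the library labelled knockout and 0.0600 in wild type, and that to the pan-endothelial markers was 0.146 in the library labelled knockout and 0.0685 in wild type. The direction of such a ratio thus differed with the marker list for the full sum, where the lymphatic list alone went the other way. Lyve1 held 553 of the 742 FPKM of the lymphatic sum in the library labelled knockout and 526 of 1513 FPKM in wild type. The lymphatic ratio therefore rests largely on Lyve1, and none without it was computed.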

How the data were processed

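RNA sequencing was compared between 1 library labelled Dot1l knockout and 1 labelled wild type. The authors deposited 1 FPKM value per gene symbol, and the unit was read from the values and from the submitters' processing notes, which name STAR 2.5.2b, Cufflinks 2.2.1, Cuffnorm, R 3.3.2 and the build mm9. The annotation, the use of strand in counting and any scaling across libraries were not given in the sources used here. Differences of log2(FPKM + 1), a minimum of 1 FPKM in at least 1 library and a 2-fold threshold were applied with Python 3.11.15 and pandas 2.3.3, and the steps were tested on simulated data. Fragments were estimated from the steps in low values of single-transcript genes of at least 2500 nt (assumed fragment length 200 nt): 76.0% of 175 values in the library labelled knockout and 83.0% of 159 in wild type lay within 0.1 of a whole number. This did not give whole fragments for genes with several transcripts, and no count test was used. Estimates for single genes use the longest GENCODE transcript, which is of another build. Depth and pooling limit precision, and nothing here measures the spread between embryos. The members and lists were chosen with earlier results of these data known. Named genes are all members, and of the other muscle genes the 10 highest in wild type and those past 2-fold. Lists of markers covered pan-endothelial, lymphatic, smooth muscle and pericyte, fibroblast, adipocyte, keratinocyte, macrophage, mast and heart muscle cells. Tmem8c, Gm7325 and Murc stand in the files for Mymk, Mymx and Cavin4. Other settings were pseudocounts, scalings, minimums and thresholds.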

Additional observations from a re-analysis of the deposited data

How the results depend on the processing

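No paired analysis was possible because there is a single library of each genotype, which also leaves no replicate to drop. The median log2 difference of the members stayed below 0 in every setting: -1.44 with a pseudocount of 0.1, -0.42 with 5, -1.46 after rescaling both libraries to a sum of 1000000, -0.99 at the same upper quartile, -0.87 at the same median gene, -0.61 with no minimum, -1.27 with a minimum of 5 FPKM, and -0.85 both without Tpm1, Tpm2 and Mef2c and for genes under 10 FPKM in both libraries (the last chosen after seeing the data). The median of all genes also moved, to -0.33 at the same sum, -0.14 at the same upper quartile and -0.11 under 10 FPKM. In the other settings it lay from 0 to 0.05. The 10 lower members became 16 (pseudocount 0.1), 3 (pseudocount 5), 17 (same sum), 16 (1.5-fold) and 3 (3-fold), while the share of all measured genes that were lower, 15.49% as reported, became 20.1%, 6.93%, 25.05%, 25.9% and 6.81% in these settings. The 1 higher member, Tnni2, became 0 with a pseudocount of 5, the same sum or 3-fold, where 9.95%, 14.29% and 9.76% of all genes were higher. Of 34 members 29 kept their direction under all 5 pseudocounts and scalings. A pseudocount cannot change a direction, so only the scalings could have done so. Nor can a scaling change the direction of Myod1, Myf5 and Pax7, listed at 0 in the library labelled knockout. Myh1, listed at 0 in both libraries, has no direction, and the other 4 had small differences: under the same sum Tnnt1 was -0.082, Actn2 -0.24, Ryr1 -0.10 and Mef2c -0.26, and at the same upper quartile Actn2 was -0.079, Ryr1 -0.020 and Mef2c -0.075. The median of the other muscle genes was -0.47, -0.11, -0.64, -0.39, -0.29, -0.13, 0.40 and -0.53 for pseudocounts of 0.1 and 5, the same sum, upper quartile and median gene, no minimum, a minimum of 5 FPKM (13 genes, a change of sign) and genes under 10 FPKM. The 8 higher ones became 4 (pseudocount 5), 4 (minimum of 5 FPKM), 5 (3-fold) and 5 (under 10 FPKM), where 9.95%, 17.5%, 9.76% and 14.43% of all genes were higher. The 9 lower ones became 3, 4, 3 and 7 in these settings, where 6.93%, 15.02%, 6.81% and 17.29% of all genes were lower, and 14 both at the same sum and at 1.5-fold, where 25.05% and 25.9% were. With paralogs outside the list added, Myh3 made up 82.5% of heavy chain FPKM in the library labelled knockout and 72.1% in wild type, and Tnni2 made up 32.4% of troponin I in the library labelled knockout and 69.2% in wild type. The ratios of member to marker sums (pan-endothelial, lymphatic, smooth muscle and pericyte, and fibroblast) were, without Tpm1, 0.304, 0.132, 1.89 and 0.106 in the library labelled knockout and 0.117, 0.103, 0.545 and 0.0433 in wild type. Without Tpm1, Tpm2 and Mef2c they were 0.146, 0.0632, 0.909 and 0.0511 in the library labelled knockout and 0.0685, 0.0600, 0.318 and 0.0252 in wild type. The lymphatic ratios and this last set were added after seeing the data. The cause of these shifts was not tested, beyond what the fewer genes or the scaling itself does.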

Other observations

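The genomic neighbours of the muscle genes were looked up after the values were seen, by their order in RefSeq GRCm38.p6. Mymk, Mymx and Cavin4, listed under older symbols and not past the 2-fold line, were left out. Only protein-coding neighbours were taken. Over all 24319 rows, measured or not, 9.17% were past the 2-fold line as higher and 8.47% as lower. Over the measured genes these shares were 16.78% and 15.49%. The 9 muscle genes past the 2-fold line as higher had 18 neighbours, of which 3 were higher, 0 lower, 10 within 2-fold and 5 unmeasured. The 19 lower ones had 38 neighbours, of which 5 were higher, 2 lower, 21 within 2-fold and 10 unmeasured. Some pairs thus differed in opposite directions: Mybpc1, Des and Chrnb1, all lower, lie beside Spic (10.4 FPKM in the library labelled knockout, listed at 0 in wild type), Speg (12.0 FPKM in the library labelled knockout and 1.75 FPKM in wild type) and Fgf11 (5.66 FPKM in the library labelled knockout and 0.663 FPKM in wild type). Mybpc3, 1.31 FPKM in the library labelled knockout and listed at 0 in wild type, neighbours Spi1, the transcription factor of myeloid cells, which had 29.8 FPKM in the library labelled knockout and 0.173 FPKM in wild type. Tnni2, the 1 higher member, neighbours Lsp1, which had 25.2 FPKM in the library labelled knockout and 6.61 FPKM in wild type. Lsp1 also neighbours Tnnt3, a lower member, and is counted in both groups. Ryr1, at 0.251 FPKM in the library labelled knockout and 0.240 FPKM in wild type, lies next to Rasgrp4, a mast cell gene with 3.80 FPKM in the library labelled knockout and 0.153 FPKM in wild type. The neighbours of Smpx are Yy2, with 3.84 FPKM in both libraries, and Klhl34, listed at 0 in both. Tnni3 and Tnnt1 are neighbours of each other, and the difference was 3.68 for Tnni3 and 0.24 for Tnnt1. Whether reads from one gene of a pair were counted for the other was not tested.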
